A study of Homo sapiens with 40 samples.

Results

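The aldo-keto reductases described here are AKR1C1, AKR1C2, AKR1C3, AKR1B10, AKR1B1 and AKR1A1, and they were read through every probe set whose platform annotation holds one of these 6 symbols. That rule found 5 probe sets among 33297: 8180376 and 7925918 for AKR1C1, 7931832 for AKR1C2, 7925929 for AKR1C3 and 8136336 for AKR1B10. AKR1B1 and AKR1A1 were not listed in the annotation and were not analysed here. The genes were chosen by measured values, namely the differences of AKR1C1 and AKR1C2 after 24 h of fluvastatin, alone or set against zoledronate. All differences of these genes that use any lot I array of 24 h, drug-treated or control, share arrays with that choice and are therefore given as a description with no test.

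Total RNA of MDA-MB-231 cells, an established human breast cancer line that stands for a single tumour, was hybridised to Affymetrix Human Gene 1.0 ST arrays, and the 40 arrays form 10 groups of 4. In lot I, cells received fluvastatin at 2 µM or zoledronate at 30 µM for 12 h or 24 h, each time with solvent-treated control cells. In lot II, cells received zoledronate at 30 µM for 48 h or at 100 µM for 24 h, each with its own solvent-treated control. All groups grew in serum-containing medium, the 4 replicates are stated to be independent, and treated and control cells were paired by day. The question put by this design is how each drug changes expression relative to control cells of the same lot, time and replicate. Values are log2 RMA signals, so that a difference of 1 is a doubling, and levels of different probe sets are not set against each other.

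Aldo-keto reductases use NADPH to reduce aldehydes and ketones to alcohols. The AKR1C enzymes act on steroids and prostaglandins as well as on reactive aldehydes, and their genes lie side by side as near copies of each other. Several are known targets of NRF2, the transcription factor of the oxidative stress response. Fluvastatin blocks HMG-CoA reductase and zoledronate blocks farnesyl pyrophosphate synthase, so both act on the mevalonate pathway, which supplies sterols and the isoprenoid chains that anchor small GTPases.

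In RefSeq's order of genes on chromosome 10, AKR1C1 is followed by AKR1C2 and AKR1C3, whereas AKR1B1 and AKR1B10 are neighbours on chromosome 7. The AKR1C1, AKR1C2 and AKR1C3 start regions are shown because these 3 genes carry the responses described below. Each runs from 250 bases before to 50 bases after the annotated start, 5′ to 3′ on the gene's strand, in GRCh38.p14 from RefSeq: chr10:4963165-4963464 (plus strand) for AKR1C1, chr10:5003808-5004107 (minus strand) for AKR1C2, and chr10:5048531-5048830 and chr10:5094164-5094463 (plus strand) for 2 annotated starts of AKR1C3. Capitals mark the CCAAT box, which lies on the opposite strand and so appears in its reverse complement.
AKR1C1: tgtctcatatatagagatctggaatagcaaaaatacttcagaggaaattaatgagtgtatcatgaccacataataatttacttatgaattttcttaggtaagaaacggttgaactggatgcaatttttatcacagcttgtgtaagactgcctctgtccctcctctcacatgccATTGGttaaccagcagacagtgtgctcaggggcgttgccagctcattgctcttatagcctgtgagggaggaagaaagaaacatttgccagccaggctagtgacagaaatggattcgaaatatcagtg
AKR1C2: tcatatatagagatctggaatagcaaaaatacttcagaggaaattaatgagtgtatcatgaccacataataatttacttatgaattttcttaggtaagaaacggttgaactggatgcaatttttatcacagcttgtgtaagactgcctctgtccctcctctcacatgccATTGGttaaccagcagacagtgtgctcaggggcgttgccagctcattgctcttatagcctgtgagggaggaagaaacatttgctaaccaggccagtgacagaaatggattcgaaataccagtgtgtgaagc
AKR1C3, start 1: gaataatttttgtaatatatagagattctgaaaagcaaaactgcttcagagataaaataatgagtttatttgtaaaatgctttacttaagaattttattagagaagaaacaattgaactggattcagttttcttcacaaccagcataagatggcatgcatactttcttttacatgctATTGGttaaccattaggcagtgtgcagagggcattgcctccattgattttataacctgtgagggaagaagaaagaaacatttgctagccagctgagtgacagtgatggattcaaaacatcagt
AKR1C3, start 2: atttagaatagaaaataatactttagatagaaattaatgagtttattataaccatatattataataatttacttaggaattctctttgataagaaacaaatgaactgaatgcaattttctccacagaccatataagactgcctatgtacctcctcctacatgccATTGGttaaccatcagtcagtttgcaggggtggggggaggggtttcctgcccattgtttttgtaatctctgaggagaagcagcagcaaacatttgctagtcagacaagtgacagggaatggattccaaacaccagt

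The AKR1C1 and AKR1C2 windows were identical at 288 of 292 aligned bases (98.6%). AKR1C1 shared 78.0% and 79.5% of aligned bases with the AKR1C3 windows, and AKR1C2 shared 77.7% and 80.6%. The longest run held by all 4 windows was ATTGGttaacca, 12 bases that begin with the reversed CCAAT box. That box lay at −77 to −73 from the start of AKR1C1, at −81 to −77 for AKR1C2, and at −73 to −69 and −86 to −82 for the AKR1C3 starts. Searched on both strands, CCAAT was present in 34.6% of 35116 human start windows of the same length. The core of the antioxidant response element that NRF2 binds, written TGACNNNGC, was in 13.3% of all windows and was not found in the 4 AKR1C windows, which says only that these letters are not in this stretch.

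AKR1C1, which reduces progesterone to a less active steroid, was measured by both of its probe sets. For probe set 8180376, fluvastatin arrays of 12 h read 8.44, 8.08, 8.42 and 8.33, zoledronate arrays of 12 h read 6.99, 7.06, 7.56 and 7.65, and control arrays of 12 h read 6.96, 7.06, 7.40 and 7.57. At 24 h the fluvastatin arrays read 9.72, 8.95, 9.47 and 9.25, the zoledronate 30 µM arrays 7.02, 7.84, 8.05 and 7.98, and the lot I control arrays 6.75, 7.61, 7.90 and 7.73. Every fluvastatin array lay above every control array of its time, while the zoledronate 30 µM arrays overlapped the control arrays at both times. How many of all probe sets separate in this way was not counted, so overlap here and below is a description only.

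In lot II, 48 h of zoledronate at 30 µM gave 8.11, 6.75, 7.27 and 7.61, and its control arrays gave 6.47, 6.46, 6.42 and 6.89. Zoledronate at 100 µM for 24 h gave 9.13, 8.66, 8.36 and 8.43, against 6.91, 6.17, 6.31 and 6.70 in its control arrays. All arrays of 100 µM stood above their controls, and at 48 h replicate 2 lay inside the control range while the other three treated arrays were above it.

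The other AKR1C1 probe set, 7925918, moved less. It read 6.94, 7.07, 7.36 and 7.25 after 12 h of fluvastatin, against 6.44, 6.26, 6.77 and 6.41 in control cells. It read 7.63, 7.15, 6.95 and 7.09 at 100 µM zoledronate, against 6.10, 6.17, 6.11 and 6.36 in control cells. Those groups did not overlap, but after 24 h of fluvastatin the values of 7.13, 7.57, 7.96 and 6.98 overlapped the control values of 6.36, 6.69, 6.41 and 7.22. Over the other treated groups, zoledronate 30 µM averaged 6.63 ± 0.42 at 12 h, 6.84 ± 0.48 at 24 h and 6.57 ± 0.18 at 48 h, against 6.47 ± 0.21, 6.67 ± 0.40 and 6.13 ± 0.33 in the matching controls (SD, n = 4 each).

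AKR1C2, which inactivates dihydrotestosterone, read 7.21, 6.62, 6.86 and 6.66 after 12 h of fluvastatin, against 5.58, 6.30, 5.51 and 6.33 in control cells. After 24 h of fluvastatin it read 7.96, 7.51, 7.68 and 7.53, against 6.03, 5.80, 6.12 and 6.27. At 100 µM zoledronate it read 7.83, 6.89, 6.90 and 6.83, against 5.97, 5.36, 5.52 and 5.75 in control cells. None of these pairs of groups overlapped, though the fluvastatin arrays of 24 h entered the choice of the genes. Replicate 1 was the highest array at 100 µM. With 30 µM zoledronate, AKR1C2 averaged 5.93 ± 0.09 at 12 h, 5.96 ± 0.58 at 24 h and 5.92 ± 0.62 at 48 h, against 5.93 ± 0.44, 6.06 ± 0.20 and 5.63 ± 0.21 in controls (SD, n = 4 each), and each pair overlapped.

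AKR1C3 makes testosterone from androstenedione and also forms prostaglandin F. It read 10.04, 9.82, 9.95 and 9.66 after 12 h of fluvastatin, against 9.0, 9.14, 9.08 and 9.21 in control cells. After 24 h of fluvastatin it read 11.19, 10.42, 10.75 and 10.43, against 9.01, 9.37, 9.59 and 9.28. Neither pair of groups overlapped. Zoledronate at 30 µM for 48 h gave 9.92, 8.83, 9.42 and 9.70, against 8.45, 8.44, 8.66 and 8.85 in control cells, with replicate 2 again inside the control range. Zoledronate at 100 µM gave 10.73, 10.47, 10.30 and 10.36, against 8.70, 8.07, 8.31 and 8.65, with no overlap. At 30 µM, AKR1C3 averaged 9.03 ± 0.20 at 12 h and 9.45 ± 0.27 at 24 h, against 9.11 ± 0.09 and 9.31 ± 0.24 in control cells (SD, n = 4 each), and the groups overlapped.

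AKR1B10, which reduces retinal and is best known from the intestine, had values from 3.43 to 4.75 over all arrays and group means from 3.62 to 4.33. Its treated and control groups overlapped in all 6 comparisons.

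**Figure D1:**
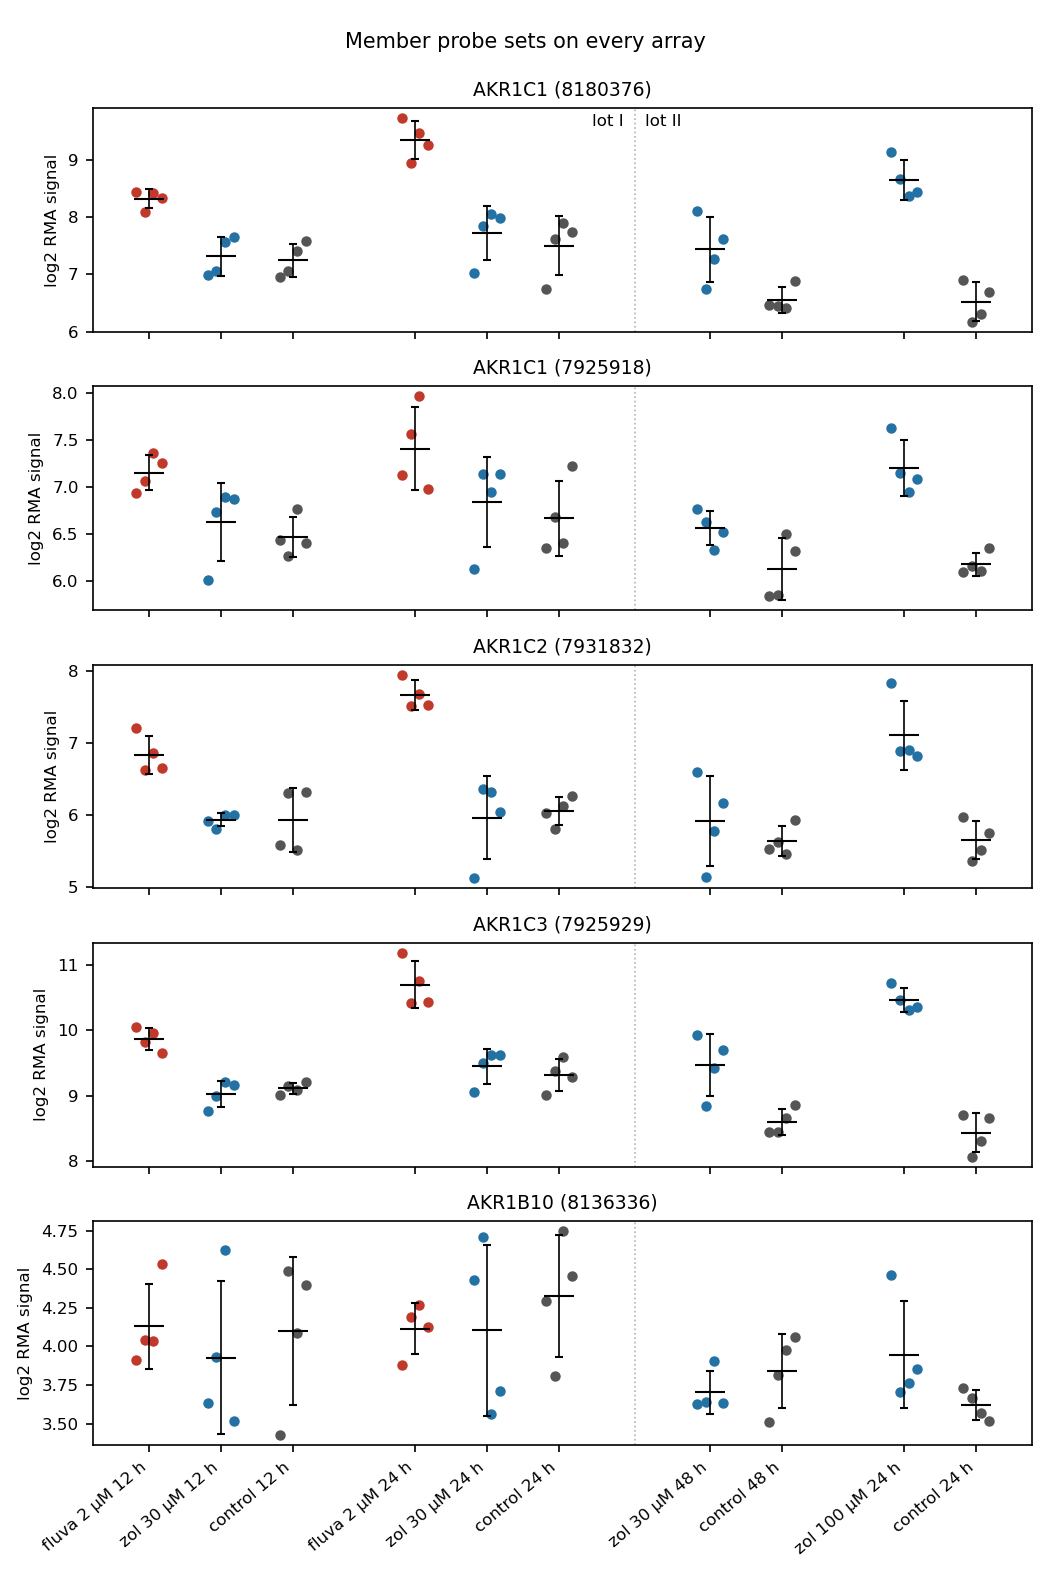
Log2 RMA signal (vertical axes) of the 5 probe sets on each of 40 arrays, by drug, dose and time, with lot I left and lot II right of the dotted line. Points are arrays in replicate order, and bars are the group mean ± SD (n = 4). Probe set 8180376 of AKR1C1 averaged 9.35 after 24 h of fluvastatin, 8.64 at 100 µM zoledronate and 7.50 or 6.52 in the matching controls.

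After 12 h of fluvastatin, AKR1C1 rose by 1.07 ± 0.22 on the log2 scale (SE) for probe set 8180376, or 2.10-fold, with a 95% interval of 0.62 to 1.52 and an adjusted p = 0.0362 in limma. All 4 pairs went up. Probe set 7925918 differed by 0.69 ± 0.21 (adjusted p = 0.197), AKR1C2 by 0.91 ± 0.25 (adjusted p = 0.144) and AKR1C3 by 0.76 ± 0.18 (adjusted p = 0.0851), none past the threshold of 0.05. AKR1B10 differed by 0.03 ± 0.25. Thus 1 of 5 probe sets was called higher and 0 lower, where 0.0691% of all probe sets were called higher and 0.153% lower. The median of the 5 was 0.76, beside 0.00 over all probe sets. The AKR1C1 call ended without the replicate block (adjusted p = 0.125), with the compared arrays alone (adjusted p = 0.341), and without replicate 2, 3 or 4 (adjusted p = 0.193, 0.262 and 0.142), at differences of 1.07 to 1.17. AKR1C3 passed when dim probe sets were removed (adjusted p = 0.0335), with 1 probe set per gene (0.0360), with an intensity trend (0.0497) and with array weights (0.0462).

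After 24 h of fluvastatin, the contrast that chose the genes, the differences were 1.85 ± 0.22 for AKR1C1 by probe set 8180376 (3.59-fold), 0.74 ± 0.21 by probe set 7925918 (1.67-fold), 1.62 ± 0.25 for AKR1C2 (3.07-fold) and 1.38 ± 0.18 for AKR1C3 (2.61-fold). AKR1B10 differed by −0.21 ± 0.25. The 4 pairs of probe set 8180376 differed by 2.96, 1.34, 1.57 and 1.51, and replicate 1 gave the largest difference for AKR1C3 too, at 2.17 beside 1.05, 1.16 and 1.15. For probe set 7925918, replicate 4 differed by −0.24 while the other three pairs went up. Set beside the effects at 12 h, those at 24 h differed by 0.78 ± 0.31 for probe set 8180376, 0.05 ± 0.30 for 7925918, 0.71 ± 0.36 for AKR1C2 and 0.62 ± 0.25 for AKR1C3.

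Zoledronate at 30 µM for 12 h gave no call among the members. Probe set 8180376 of AKR1C1 differed by 0.07 ± 0.22 (95% interval −0.38 to 0.52), AKR1C3 by −0.08 ± 0.18 (−0.45 to 0.29) and AKR1C2 by 0.00 ± 0.25. All 5 probe sets had an adjusted p of 0.999 in limma, and 0 of 5 had an unadjusted p below 0.05. Among all probe sets, 0% were called higher and 0% lower, with 490 above and 645 below zero at an unadjusted p under 0.05. At 24 h, given with no test, probe set 8180376 differed by 0.22 ± 0.22 (−0.23 to 0.67), AKR1C3 by 0.14 ± 0.18 (−0.23 to 0.51) and AKR1C2 by −0.09 ± 0.25. The 4 pairs of probe set 8180376 lay between 0.15 and 0.27. There too 0% of all probe sets were called higher and 0% lower, with 834 and 948 at an unadjusted p under 0.05.

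After 48 h at 30 µM, AKR1C1 and AKR1C3 were higher. Probe set 8180376 rose by 0.88 ± 0.22 (95% interval 0.43 to 1.33, adjusted p = 0.0259, limma), with pairs at 1.64, 0.30, 0.85 and 0.72. AKR1C3 rose by 0.87 ± 0.18 (0.50 to 1.24, adjusted p = 0.00800), with pairs at 1.48, 0.39, 0.76 and 0.85. In both genes replicate 1 moved most and replicate 2 least. Probe set 7925918 differed by 0.43 ± 0.21 (adjusted p = 0.332), AKR1C2 by 0.29 ± 0.25 (adjusted p = 0.666) and AKR1B10 by −0.14 ± 0.25 (adjusted p = 0.876). The count was 2 of 5 higher and 0 lower, where 1.49% of all probe sets were called higher and 2.2% lower, and the medians were 0.43 for the members and 0.01 for all. The AKR1C1 call ended without the replicate block (adjusted p = 0.103), and both calls ended with the compared arrays alone (0.351 for AKR1C1, 0.330 for AKR1C3), without replicate 3 (0.187 and 0.0972) and without replicate 4 (0.0905 and 0.0515).

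At 100 µM zoledronate for 24 h, every AKR1C probe set rose. AKR1C1 rose by 2.12 ± 0.22 for probe set 8180376 (4.35-fold, 95% interval 1.67 to 2.57, adjusted p = 2.89e-07, limma), and AKR1C3 rose by 2.03 ± 0.18 (4.10-fold, 1.66 to 2.40, adjusted p = 4.48e-08). AKR1C2 rose by 1.46 ± 0.25 (2.76-fold, 0.94 to 1.99, adjusted p = 0.000136). The AKR1C1 probe set 7925918 rose by 1.02 ± 0.21 (2.03-fold, 0.58 to 1.47, adjusted p = 0.000993), so that its interval ended below that of 8180376. All 4 pairs of each of these probe sets went up, with the smallest pair difference at 0.73. AKR1B10 differed by 0.33 ± 0.25 (−0.20 to 0.85, adjusted p = 0.442). This made 4 of 5 higher and 0 lower, where 10% of all probe sets were called higher and 12.6% lower, and the medians were 1.46 for the members and −0.00 for all.

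**Figure D2:**
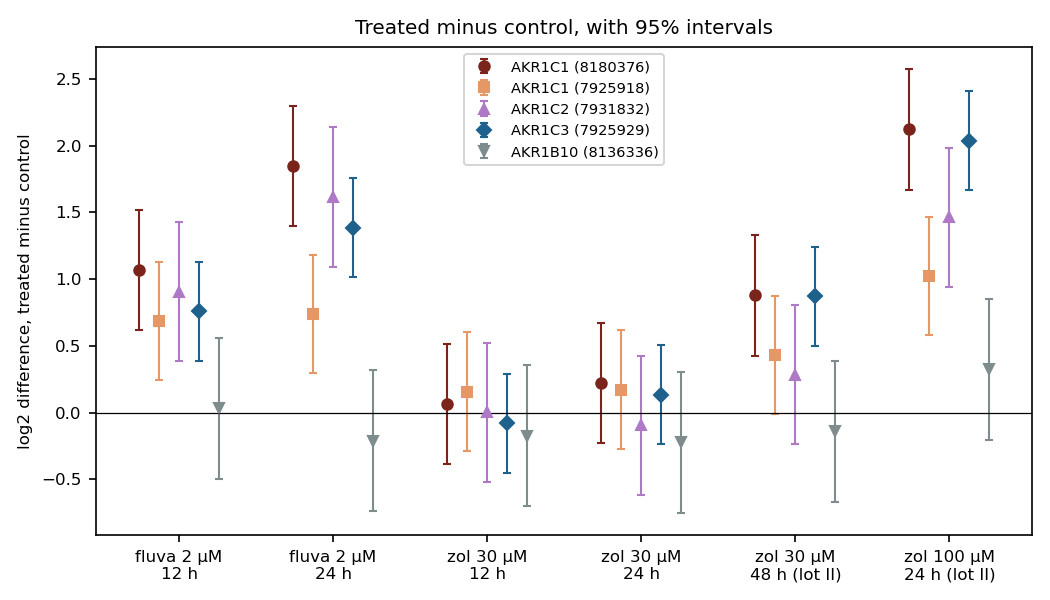
Log2 difference, treated minus control (vertical axis), of each probe set in the 6 treated groups, with 95% intervals from the fit over 40 arrays. The AKR1C probe sets lay between 0.69 and 1.85 with fluvastatin and between 1.02 and 2.12 at 100 µM zoledronate, and AKR1B10 had an interval across zero in each group.

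Set against each other at 12 h in lot I, zoledronate at 30 µM and fluvastatin differed by −1.0 ± 0.22 for probe set 8180376 (adjusted p = 0.0627, limma) and by −0.84 ± 0.18 for AKR1C3 (adjusted p = 0.0575). AKR1C2 differed by −0.90 ± 0.25 (adjusted p = 0.153), probe set 7925918 by −0.53 ± 0.21 (adjusted p = 0.364) and AKR1B10 by −0.20 ± 0.25 (adjusted p = 0.835). None of 5 passed, where 0.105% of all probe sets were called higher and 0.0571% lower. At an unadjusted p under 0.05 stood 4 of the 5, and 1880 above and 1684 below zero among all 33297 probe sets. AKR1C1 and AKR1C3 were both called lower with zoledronate when dim probe sets were removed, with 1 probe set per gene, with an intensity trend and with array weights. At 24 h, a contrast used in the choice of the genes, the differences were −1.62 for probe set 8180376, −0.57 for 7925918, −1.71 for AKR1C2, −1.25 for AKR1C3 and −0.01 for AKR1B10. The drugs were given at different doses, so these values compare the treatments as used.

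The effect of zoledronate at 24 h was 1.90 ± 0.31 greater at 100 µM than at 30 µM for probe set 8180376, 1.90 ± 0.25 for AKR1C3 and 1.56 ± 0.36 for AKR1C2. For probe set 7925918 the difference of effects was 0.85 ± 0.30, and for AKR1B10 it was 0.55 ± 0.36. The effect of 30 µM at 48 h minus that at 24 h was 0.65 ± 0.31 for probe set 8180376 and 0.73 ± 0.25 for AKR1C3. These values are given with no test, since the 30 µM arrays of 24 h entered the choice of the genes. The 100 µM and 48 h arrays all belong to lot II and the other zoledronate arrays to lot I, so dose or time cannot be told apart from lot.

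Control cells of the lots also had different levels, again given with no test. At 24 h, control cells of lot II minus those of lot I gave −0.98 ± 0.25 for probe set 8180376, −0.49 ± 0.22 for 7925918, −0.40 ± 0.25 for AKR1C2, −0.89 ± 0.18 for AKR1C3 and −0.71 ± 0.24 for AKR1B10. The median of the 5 was −0.71, beside −0.01 over all probe sets, and lot cannot be told apart from the processing of its arrays.

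Time in culture gave no call among the members in lot II. Control cells of 48 h differed from those of 24 h by −0.05 to 0.22 over the 5 probe sets (adjusted p 0.790 to 0.990, limma), where 0.429% of all probe sets were called higher and 1.72% lower, and 0 of 5 members had an unadjusted p below 0.05. In lot I, control cells of 24 h minus those of 12 h gave 0.13 to 0.25, with no test.

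Probe set 8180376 of AKR1C1 and the AKR1C3 probe set moved together from pair to pair. Over the 24 treated minus control differences their Pearson r was 0.97. It was 0.96 for the deviations of these differences from the mean of their treated group, and 0.94 over the 16 control arrays. With AKR1C2 the same 3 values were 0.85, 0.54 and 0.68, and with the other AKR1C1 probe set they were 0.56, 0.08 and 0.68. With AKR1B10 they were 0.23, 0.03 and 0.67. These are descriptions: the points share control arrays in lot I, days and, for the control arrays, the difference between lots. The probes of near-identical genes can also share signal, and how far they did was not tested.

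**Figure D3:**
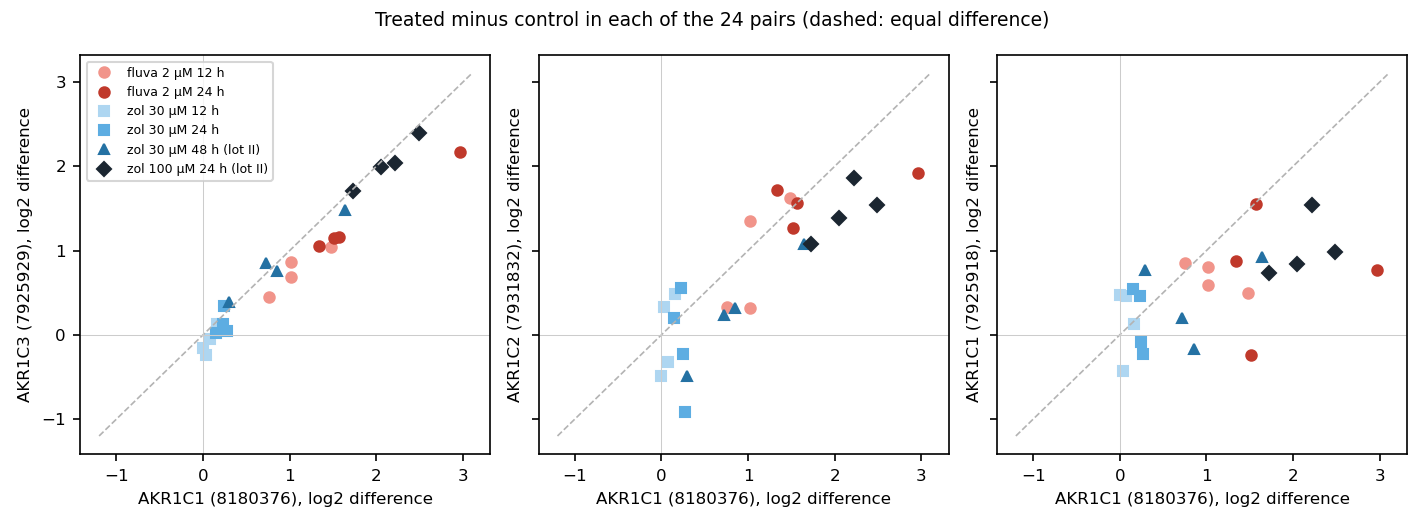
Log2 difference, treated minus control, in each of 24 pairs for AKR1C1 probe set 8180376 (horizontal axes) against AKR1C3, AKR1C2 and AKR1C1 probe set 7925918 (vertical axes), with the dashed line at equal difference. The points lay closest to a line for AKR1C3 (r = 0.97) and were most scattered for probe set 7925918 (r = 0.56).

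The 10 genes whose 24 differences were most like those of AKR1C1 probe set 8180376 were SPDEF (r = 0.97), SLC20A1, PHLDA1 and TIMP3 (0.96 each), PECAM1, TGFA and SMARCA1 (0.95 each), and SLK, VAT1 and DDAH2 (0.94 each). SPDEF, an epithelial transcription factor, differed by 0.86 at 12 h and 1.66 at 24 h of fluvastatin, by −0.01, 0.10 and 0.57 at 12 h, 24 h and 48 h of 30 µM zoledronate, and by 2.23 at 100 µM. TGFA, a ligand of the EGF receptor, differed by 0.37, 0.79, 0.02, 0.02, 0.42 and 1.03 in the same order. PECAM1 is also an endothelial marker: among 6 fibroblast and endothelial markers it rose at 48 h (0.59, adjusted p = 0.0479, limma), and it rose with PDGFRB at 100 µM (1.30 and 0.48, adjusted p = 3.85e-06 and 0.00293). The mean log2 level of the 6 markers ran from 5.27 to 5.44 at 100 µM, against 4.97 to 5.10 in its control arrays, and from 5.09 to 5.31 at 48 h, against 4.93 to 5.20. No marker was listed at 0. Of 3 blood cell markers, CD14 rose at 100 µM (0.42, adjusted p = 0.0244), while PTPRC and CD3E differed by −0.05 and −0.01, and the mean log2 level of the 3 ran from 4.69 to 4.92, against 4.66 to 4.80 in control arrays. Of 5 receptor and epithelial markers listed as low in this line (ESR1, PGR, ERBB3, CDH1 and EPCAM), ERBB3 rose at 100 µM (0.27, adjusted p = 0.0278). The endothelial marker CDH5 stayed between 4.91 and 5.42 over all arrays, and the part of other cells in the AKR1C results was not tested. In RNA from whole cultures, more cells of a kind and more RNA per cell cannot be told apart.

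Line and treatment markers were as follows. VIM, CD44 and KRT18 averaged 12.3, 11.1 and 11.7 over all arrays, ESR1, PGR and CDH1 averaged 4.93, 4.68 and 4.78, and EPCAM averaged 8.12. RHOB, a small GTPase gene that rises when isoprenoids run short, rose by 1.48 ± 0.22 after 12 h of fluvastatin (adjusted p = 0.0112, limma), by 1.11 ± 0.22 after 48 h of zoledronate (adjusted p = 0.00728) and by 3.01 ± 0.22 at 100 µM (adjusted p = 6.11e-09). After 24 h of zoledronate at 30 µM it differed by 0.37 ± 0.22 (adjusted p = 0.980). In the 3 comparisons where RHOB passed, 1, 2 and 4 of 5 member probe sets passed, in that order, all of AKR1C genes. Of all probe sets, 0.0691%, 1.49% and 10% were called higher there, a share that grew in the same order. After 12 h of zoledronate at 30 µM, 0 of 5 passed, where 0% of all probe sets were called higher and 0% lower.

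Genes linked to NRF2 went in both directions at the dose where the AKR1C probe sets rose. Of 31 measured genes of that list, 8 rose and 3 fell at 100 µM zoledronate, where 10% of all probe sets were called higher and 12.6% lower, and the list had a median of 0.01 with 16 of 31 above zero. The count that fell is near the share over all probe sets. Those shares include probe sets with no listed gene. With 1 probe set per gene, as in this list, 32% were called in either direction at 100 µM. The count of NRF2-linked genes called in either direction is near that share. SLC6A6, a taurine transporter, rose by 0.51 ± 0.09 (adjusted p = 0.000189, limma), UGDH, which makes UDP-glucuronate, by 0.47 ± 0.08 (adjusted p = 0.000198) and EPHX1, an epoxide hydrolase, by 0.46 ± 0.08 (adjusted p = 0.000200). SRXN1, which repairs peroxiredoxins, fell by 0.35 in log2 units (adjusted p = 0.000110). Of the classical target genes, NQO1, a quinone reductase, rose by 0.34 ± 0.09 (adjusted p = 0.00699). GCLM, a subunit of the enzyme that starts glutathione synthesis, fell by 0.48 in log2 units (adjusted p = 0.00180). HMOX1, which degrades heme, differed by −0.00 ± 0.09 (adjusted p = 0.990), and SLC7A11, the cystine transporter, by 0.08 (adjusted p = 0.658). After 48 h at 30 µM, 0 of the 31 rose and 1 fell (SLC7A11, −0.37 ± 0.09, adjusted p = 0.0287, limma). Both counts are near the shares of 1.49% higher and 2.2% lower over all probe sets. After 12 h of fluvastatin 0 of 31 passed, where 0.0691% of all probe sets were called higher and 0.153% lower. The list then had a median of 0.07 with 23 above zero. At 24 h its median was 0.12 with 26 above zero, given with no test.

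**Figure D4:**
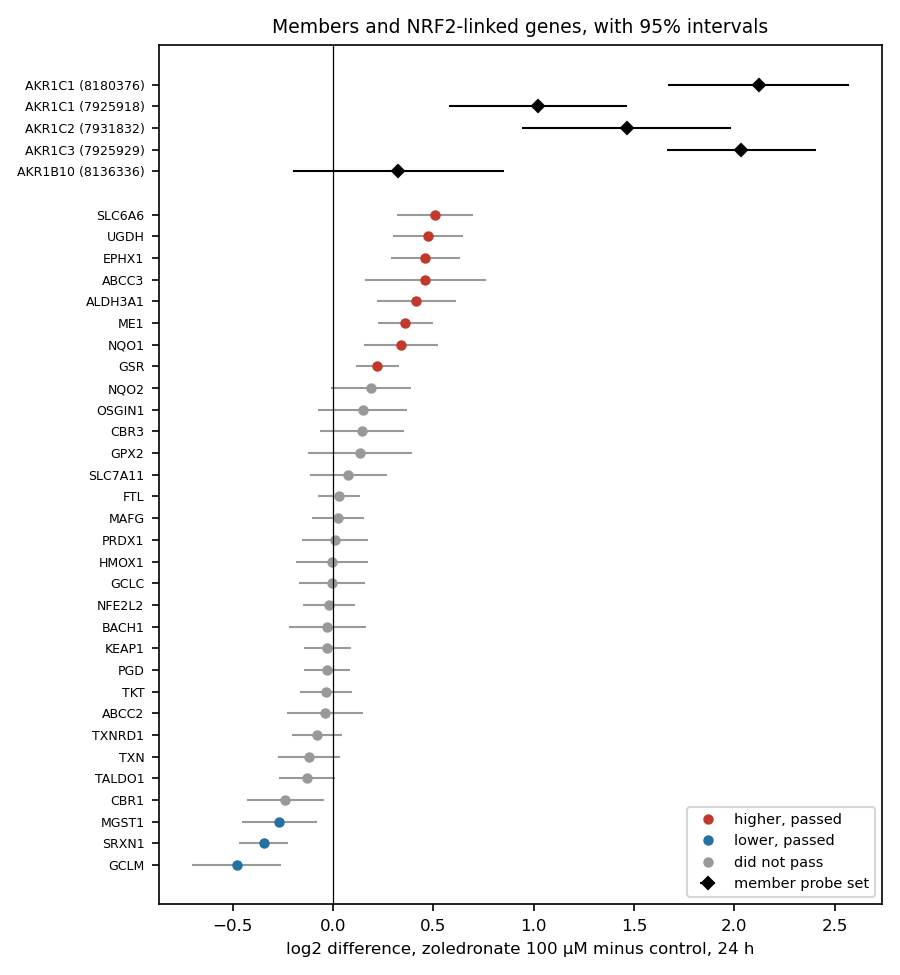
Log2 difference, zoledronate 100 µM minus control at 24 h (horizontal axis), with 95% intervals, for the 5 member probe sets (diamonds, top) and 31 NRF2-linked genes (circles, coloured by call). AKR1C probe sets lay between 1.02 and 2.12, and the listed genes were on both sides of zero with a median of 0.01.

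Of 8 other genes of the aldo-keto reductase superfamily, 1 rose at 100 µM and 0 fell, where 10% and 12.6% of all probe sets did. The count that rose is near that share. It was AKR1C4, a bile acid enzyme of liver from the same gene group (0.50 ± 0.14, adjusted p = 0.0102, limma). AKR1C4 averaged 3.94 over all arrays, a level that 17.0% of probe sets did not exceed. Signal shared with the other AKR1C genes was not tested. AKR7A2, which reduces succinic semialdehyde, differed by 0.01 ± 0.07 (adjusted p = 0.930). The median of the 8 was 0.13. None of 8 passed at 48 h, where 1.49% of all probe sets were called higher and 2.2% lower. None passed after 12 h of fluvastatin, where 0.0691% and 0.153% were.

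In steroid metabolism, 3 of 24 genes rose and 2 fell at 100 µM, both near the shares of 10% and 12.6% over all probe sets. With 1 probe set per gene, the share called in either direction was 32%. HSD17B2, which inactivates estradiol and testosterone, fell by 1.22 in log2 units (adjusted p = 4.47e-08, limma), and STS, the steroid sulfatase, rose by 0.63 ± 0.07 (adjusted p = 5.66e-07). At 48 h STS rose by 0.43 ± 0.07 (adjusted p = 0.00145, limma) and HSD17B2 fell by 0.39 in log2 units (adjusted p = 0.0398). They were the only 2 of 24 that passed, where 1.49% of all probe sets were called higher and 2.2% lower. With 1 probe set per gene, 7.58% were called in either direction at 48 h, and the count is near that share. After 24 h of fluvastatin STS differed by 0.52 and HSD17B2 by −0.75, given with no test.

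In prostaglandin metabolism, 4 of 24 genes rose and 4 fell at 100 µM, beside 10% and 12.6% of all probe sets. At 48 h, 3 rose and 0 fell, beside 1.49% and 2.2%. With 1 probe set per gene, 32% were called in either direction at 100 µM and 7.58% at 48 h. At 100 µM, the count of listed genes called in either direction is near that share of 32%. HPGD, which inactivates prostaglandins, rose by 1.08 ± 0.14 at 100 µM (adjusted p = 6.48e-06, limma) and by 0.63 ± 0.14 at 48 h (adjusted p = 0.0151). PTGES, a prostaglandin E synthase, rose by 1.09 ± 0.20 at 100 µM (adjusted p = 0.000293), and PTGS2, the inducible cyclooxygenase, by 0.81 ± 0.22 (adjusted p = 0.00924). The prostaglandin E receptor gene PTGER4 fell by 0.76 in log2 units (adjusted p = 0.000179).

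In aldehyde, retinal and polyol metabolism, 10 of 22 genes rose and 2 fell at 100 µM, beside 10% and 12.6% of all probe sets. The median of the 22 was 0.19. With 1 probe set per gene, 32% of probe sets were called in either direction. ALDH3A2, a fatty aldehyde dehydrogenase, rose by 0.56 ± 0.07 (adjusted p = 1.99e-06, limma), RDH10, which oxidizes retinol, by 0.70 ± 0.10 (adjusted p = 2.64e-05) and DHRS9 by 0.56 ± 0.12 (adjusted p = 0.00115). DHRS9 averaged 4.15 over all arrays, a level that 19.5% of probe sets did not exceed. ALDH1B1, a mitochondrial aldehyde dehydrogenase, fell by 0.82 in log2 units (adjusted p = 1.26e-07). At 48 h, 2 of 22 rose and 1 fell, beside 1.49% and 2.2% of all probe sets, or 7.58% in either direction with 1 probe set per gene. ALDH3A2 rose by 0.34 ± 0.07 (adjusted p = 0.00623) and RDH10 by 0.48 ± 0.10 (adjusted p = 0.0109), and ALDH9A1, which oxidizes aminoaldehydes, fell by 0.26 in log2 units (adjusted p = 0.00630). In the steroid, prostaglandin and aldehyde lists, 0 genes passed after 12 h of fluvastatin or after 12 h or 24 h of zoledronate at 30 µM. Of all probe sets, 0.0691% were called higher and 0.153% lower after that fluvastatin treatment, and 0% in either direction after those zoledronate treatments. The counts of 0 are thus near the shares over all probe sets.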

How the data were processed

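The deposited log2 values of 33297 probe sets were made by the authors with RMA in Affymetrix Power Tools 1.10.2, and limma was used, per the submitters' processing notes. The genome build was not given in the sources used here, nor was any joint normalization of the lots. Array medians lay between 6.19 and 6.33 and no pair of arrays was identical (highest r 0.996). The number of arrays limits the precision.

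Members and gene lists were chosen with earlier results of these data known. Gene names came from the platform annotation, in which 19460 had 1 symbol, 1754 had several and 12083 were not listed. Each member probe set was kept apart. For other genes, the probe set with 1 symbol and the highest mean over all arrays was used, and 130 of 142 list and marker entries were measured. Named genes are all members, up to 4 genes per list and comparison with the smallest p past the threshold, classical genes of a list, the 10 genes most like AKR1C1, RHOB and KLF2. KLF2, a further isoprenoid-sensitive gene, differed by 0.76 after 12 h of fluvastatin, 0.67 after 48 h and 1.17 at 100 µM of zoledronate.

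All 33297 probe sets were fitted in limma 3.58.1 (R 4.3.3, lmFit and eBayes) over 40 arrays, with 16 blocks of lot, time and replicate and 6 treated effects. P values were two-sided and adjusted by Benjamini-Hochberg over all probe sets, with a threshold of 0.05. Control groups were compared in a fit of group means. The tests planned for member differences that use lot I arrays of 24 h were dropped after the data were seen, since these arrays entered the choice of the genes. The fit was tested on simulated data. The design text states the pairing by day. Deviations of paired arrays from their group means correlated at 0.07 to 0.43 in lot I, with 15 of 16 pairs above 0.1, and at −0.15 to 0.33 in lot II, with 3 of 8, where the pairing rests on that text. Alternatives were no replicate block, a new quantile normalization, median centring, removal of dim probe sets, 1 probe set per gene, an intensity trend, array weights, the compared arrays alone and leaving out each replicate in turn. Start regions were compared with Biopython 1.88.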

Additional observations from a re-analysis of the deposited data

Results flagged for a closer look

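Among 50 groups of 4 arrays, 10 for each member probe set, 3 held 1 array whose gap to the nearest other, divided by the group's range, exceeded the critical ratio of 0.829, and chance gives this in about 5% of groups. In AKR1C2, replicate 1 of zoledronate at 100 µM read 7.83, with the other three arrays between 6.83 and 6.90. In AKR1C1 probe set 8180376, replicate 4 of the 48 h control cells read 6.89, with the others between 6.42 and 6.47. In AKR1B10, replicate 3 of zoledronate at 30 µM for 48 h read 3.91, with the others between 3.63 and 3.64.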

How the results depend on the processing

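No member difference past the threshold changed sign under any alternative run of its comparison. At 100 µM zoledronate the same count of 4 of 5 probe sets rose under every alternative run, and with each replicate left out (4 to 4). After 12 h of fluvastatin the count of 1 became 0 with no replicate block and with the compared arrays alone, and 2 with dim probe sets removed, 1 probe set per gene, an intensity trend or array weights, and it lay between 0 and 1 with a replicate left out. After 48 h of zoledronate the count of 2 became 1 with no replicate block and 0 with the compared arrays alone, and lay between 0 and 2 with a replicate left out. For zoledronate minus fluvastatin at 12 h the count of 0 became 1 after a new quantile normalization (AKR1C3, adjusted p = 0.0452 in limma) and 2 with dim probe sets removed, 1 probe set per gene, an intensity trend or array weights. With a replicate left out, the median difference of zoledronate effects between 100 µM and 30 µM lay between 1.15 and 1.75, beside 1.56, and was lowest without replicate 1. The replicate block changed no other count of member calls. Of 766 single differences under alternatives, 741 kept their side of the threshold or, where there was no test, moved by less than the spread between replicates. Among tested differences, signs were compared only where the reported fit or the alternative passed. Small differences that passed in neither may have changed sign. A further 13 passed only under the alternative and 12 only in the reported fit. Over all probe sets, calls after 12 h of fluvastatin were 23 higher and 51 lower in the reported fit, in all 18 with no replicate block, 206 with dim probe sets removed and 0 to 18 with a replicate left out. After 48 h of zoledronate they were 497 and 731, in all 258 with no replicate block, 2094 with dim probe sets removed and 140 to 927 with a replicate left out. The compared arrays alone, which leave fewer arrays to estimate the spread, gave 0 calls in both. Calls between the drugs at 12 h were 35 and 19, in all 0 to 175 over the alternatives. Calls between control cells of 48 h and 24 h in lot II were 143 and 572, in all 1982 with a replicate block and 183 to 1160 with a replicate left out. AKR1B10 has no value with dim probe sets removed. No detection call accompanies these values, so whether AKR1B10 was above background was not tested.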
